A study of Mus musculus with 3 samples.

Results

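Tubulin isotypes are the products of separate genes that encode slightly different versions of alpha and beta tubulin, and 10 of them were followed here across 3 stiffness levels. They were chosen by name, 4 alpha genes (Tuba1a, Tuba1b, Tuba1c and Tuba4a) and 6 beta genes (Tubb2a, Tubb2b, Tubb3, Tubb4b, Tubb5 and Tubb6), out of 56833 genes in the deposited table. All 10 were found. The cells came from ankle synovium of mice of the genotype Efhd1CreER; Ai9, whose CreER recombinase is driven by Efhd1 and switches on the red reporter tdTomato, and they were sorted for that colour. The reporter marks cells in which Efhd1 drove the recombinase, and their later progeny. Tamoxifen treatment is not given in the sources used here. The labels call them telocytes, an interstitial cell type with long thin processes. They were cultured for 24 h on collagen-coated CytoSoft plates whose stiffness was 0.2 kPa for the soft, 8 kPa for the intermediate and 64 kPa for the stiff library, and RNA was sequenced after selection of mRNA with a stranded kit. All 3 cultures shared the genotype, the sort, the medium and the collagen coating. Synovia could share a digestion tube, and the number, age and sex of the mice are not given in the sources used here.

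Each level had a single library (n = 1), which leaves every difference without replicate error, and p-values are not given. A difference between 2 cultures cannot be told apart from one between 2 stiffness levels. Depth was 25487064 reads for soft, 28081600 for intermediate and 26474862 for stiff. Intervals are exact 95% Clopper-Pearson intervals of the reads of the 2 libraries compared and cover counting error alone. They take each read as a separate draw, so they are too narrow where reads are PCR copies of a molecule. The gene of the Cre driver, Efhd1, had 10 reads on soft, 5 on intermediate and 3 on stiff plates. Of 9 genes listed here as telocyte markers, Pdgfra, Cd34, Foxl1 and Pi16 averaged at least 50 normalized counts and the other 5 did not. Pdgfra is also among the synovial fibroblast genes listed below. Since RNA was taken in bulk, more cells of a type and more RNA per cell cannot be told apart in any value below.

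Microtubules are hollow tubes built from pairs of 1 alpha and 1 beta tubulin. They give the cell its tracks for motor proteins, its mitotic spindle and part of its resistance to compression. Isotypes are nearly alike in the folded core and differ most in an acidic tail at the carboxyl end, which lies on the outside of the microtubule, is modified by enzymes and is read by motors and associated proteins. Tubulin mRNA is also under feedback from its own protein: when unassembled tubulin accumulates, the start of the new chain is recognized by the factor TTC5 as it leaves the ribosome, and the mRNA is degraded.

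The sequences that carry these features were read from the Ensembl canonical transcripts of GENCODE vM39 and are shown 5′ to 3′. The tails are where the isotypes differ most, and the first codons encode the residues that the feedback reads. The last 60 bases of the coding sequence, stop codon included, are given for 7 of the genes, with the codons for glutamate and aspartate, the acidic residues, in capitals.
Tuba1c: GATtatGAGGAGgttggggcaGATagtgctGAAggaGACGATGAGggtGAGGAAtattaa
Tuba4a: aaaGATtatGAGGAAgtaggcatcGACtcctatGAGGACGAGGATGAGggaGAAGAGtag
Tubb2a: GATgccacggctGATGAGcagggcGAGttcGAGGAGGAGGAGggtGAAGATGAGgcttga
Tubb2b: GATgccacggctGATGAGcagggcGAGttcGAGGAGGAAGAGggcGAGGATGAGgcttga
Tubb3: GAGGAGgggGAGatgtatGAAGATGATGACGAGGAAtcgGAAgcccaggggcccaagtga
Tubb4b: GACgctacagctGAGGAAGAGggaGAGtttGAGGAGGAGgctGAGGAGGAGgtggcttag
Tubb5: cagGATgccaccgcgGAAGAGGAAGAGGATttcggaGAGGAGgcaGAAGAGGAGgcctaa
Acidic codons made up 10 or 11 of the last 20 codons in these 7 genes. Tuba1c ended in a tyrosine codon (TAT), the residue that enzymes remove from and restore to alpha tubulin, whereas Tuba4a ended in a glutamate codon (GAG). The tails of Tubb2a and Tubb2b were 95% identical over 60 bases.

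The first 12 bases, which encode the stretch recognized in the feedback on tubulin mRNA, are shown for 1 alpha and 2 beta genes, with the 3 codons after the start codon in capitals.
Tuba1a: atgCGTGAGTGC
Tubb5: atgAGGGAAATC
Tubb2b: atgCGAGAGATC
These codons read arginine, glutamate and cysteine in Tuba1a, and arginine, glutamate and isoleucine in Tubb5 and Tubb2b.

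Near-identical copies limit how well reads can be assigned. Coding sequences of alpha pairs were 85.2% to 98.4% identical, those of beta pairs 81.0% to 96.5%, and those of alpha and beta genes 62.6% to 65.1%. Each canonical transcript was divided into all of its 50-base windows, and a window was counted as unique when it occurred nowhere else in the GRCm39 genome or in transcripts of another gene. Unique windows made up 6.12% of the coding sequence of Tuba1a, 4.06% of that of Tuba1b and 9.38% of that of Tuba1c, but 100% of the 3′ untranslated region of Tuba1a, 94.6% of that of Tuba1b and 88.1% of that of Tuba1c. The share in the coding sequence was 40.0% for Tubb2a, 34.2% for Tubb2b and 38.9% for Tubb4b. It was at least 91.9% for Tuba4a, Tubb3, Tubb5 and Tubb6, which are the isotypes whose counts are least exposed to misassignment. How reads that fit several genes were counted is not given in the sources used here, so the separate counts of Tuba1a, Tuba1b, Tuba1c, Tubb2a, Tubb2b and Tubb4b are uncertain. Of 5 tubulin genes named as pseudogenes or related sequences in the table, 4 had any read, and all 5 together had 49, 38 and 52 reads in the soft, intermediate and stiff library.

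**Figure D1:**
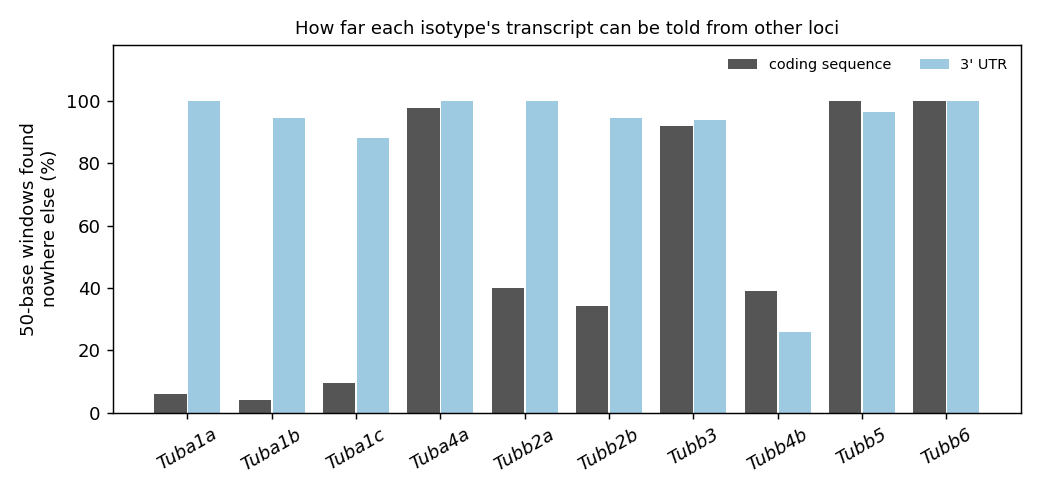
Share of 50-base windows of each canonical transcript that were found nowhere else, for the coding sequence (dark bars) and the 3′ untranslated region (light bars), as percent. The coding sequences of Tuba1a, Tuba1b and Tuba1c hold 6.12%, 4.06% and 9.38% unique windows, against 91.9% or more in Tuba4a, Tubb3, Tubb5 and Tubb6.

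Several of the genes are neighbours. On GRCm39, Tuba1b (chromosome 15, 98827738 to 98832493, minus strand), Tuba1a (98847714 to 98851589, minus strand) and Tuba1c (98927748 to 98936266, plus strand) lie within 108529 bases. Tubb2a (chromosome 13, 34257549 to 34261998) and Tubb2b (34307245 to 34315143) lie 45.2 kb apart on the minus strand. Tuba4a is on chromosome 1 (75189219 to 75196566, minus strand), Tubb4b on chromosome 2 (25112170 to 25114714, minus strand), Tubb3 on chromosome 8 (124138163 to 124150092, plus strand), Tubb5 on chromosome 17 (36144809 to 36149198, minus strand) and Tubb6 on chromosome 18 (67523585 to 67536773, plus strand). The canonical transcript had 4 exons in all 10.

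Tubulin mRNA was highest in the stiff library for all 10 isotypes. The 10 genes together stood at 94992 normalized counts on soft, 100003 on intermediate and 129391 on stiff plates. They took 0.364% of all reads in the soft library (interval 0.361% to 0.366%), 0.378% in the intermediate (0.376% to 0.380%) and 0.477% in the stiff library (0.474% to 0.479%). The summed level was thus 1.36-fold in the stiff against the soft library, a log2 ratio of 0.45 with a counting interval from 0.43 to 0.46. Most of that lay between intermediate and stiff: the log2 ratio was 0.07 (0.06 to 0.09) from soft to intermediate and 0.37 (0.36 to 0.38) from intermediate to stiff. The first of these was 0.038 when the libraries were scaled by upper quartile. The 4 alpha genes summed to a stiff to soft ratio of 0.51 (0.49 to 0.53) and the 6 beta genes to 0.42 (0.40 to 0.43). For the 4 isotypes with at least 90% unique windows the sum gave 0.40 (0.38 to 0.42) from soft to stiff and 0.045 (0.03 to 0.06) from soft to intermediate. The proportion of beta to alpha tubulin, per kb of exon, was 2.04 on soft, 1.89 on intermediate and 1.85 on stiff plates. Per kb of unique windows, a length chosen after seeing the data, it was 1.20, 1.09 and 1.03, so the proportion itself depends on the length used.

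A gene was counted as changed when its log2 ratio, with a pseudocount of 1, was at least 0.5 in size and it averaged 50 normalized counts or more across the 3 libraries. All 10 isotypes had that mean, as did 11873 genes in all, and genes with that mean are called expressed below. For stiff over soft, 6 of the 10 isotypes were higher by that size and 0 lower, where 11.8% of all genes were higher, 3.77% lower and 15.6% either. For intermediate over soft 0 of 10 passed in either direction, where 3.94% of all genes were higher, 0.657% lower and 4.6% either. For stiff over intermediate 4 of 10 were higher and 0 lower, where 5.42% of all genes were higher, 3.42% lower and 8.84% either. A log2 ratio above 0 was found in 10 of 10 isotypes for stiff over soft (51.1% of all genes), 9 of 10 for intermediate over soft (53.5%) and 10 of 10 for stiff over intermediate (51.1%). With the libraries scaled by total reads or by upper quartile, 4 of 10 passed the size for stiff over soft in place of 6, without Tuba1c and Tuba4a. Those scalings lowered stiff to soft ratios by about 0.055 and 0.058, and the shares of all genes given here are for the deposited scaling. The intermediate to soft ratio of Tubb4b then fell below 0, to -0.001 and -0.018. The median log2 ratio of the 10 isotypes was 0.51 (stiff over soft), 0.10 (intermediate over soft) and 0.44 (stiff over intermediate), against 0.0049, 0.012 and 0.0061 over all genes. The 3 comparisons share libraries, so they are not separate evidence.

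**Figure D2:**
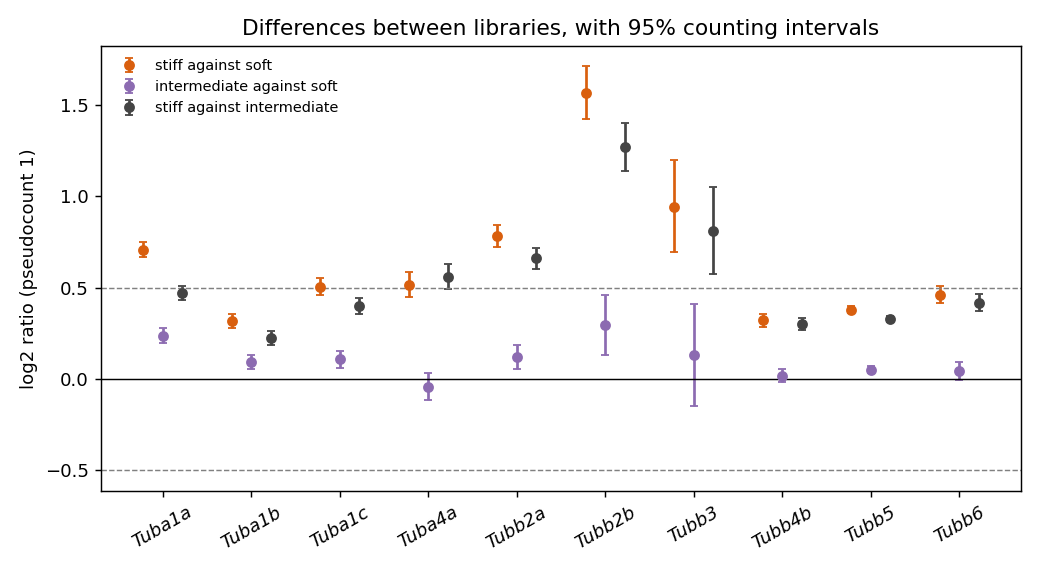
Log2 ratios of the 10 isotypes in the 3 comparisons (points) with 95% counting intervals (bars); dashed lines mark a size of 0.5. Stiff against soft ranges from 0.32 to 1.56, and the intermediate to soft ratios lie between -0.04 and 0.29.

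Among the alpha genes, Tuba1a, an isotype abundant in developing neurons and present in many growing cells, had the largest stiff to soft ratio. It had 8647 normalized counts on soft, 10188 on intermediate and 14121 on stiff plates. Its stiff to soft log2 ratio was 0.71 (0.67 to 0.75), and it was the alpha gene with the largest difference for intermediate over soft, at 0.24 (0.20 to 0.28). Tuba1b, a widely expressed isotype, had 10264 normalized counts on soft, 10943 on intermediate and 12779 on stiff plates, a stiff to soft ratio of 0.32 (0.28 to 0.35). The counting intervals of the 2 stiff to soft ratios do not overlap, but they cover neither misassigned reads nor differences between cultures.

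Tuba1c, the third gene of the chromosome 15 cluster, had 6893 normalized counts on soft, 7428 on intermediate and 9783 on stiff plates. The stiff to soft ratio was 0.51 (0.46 to 0.55), just past the size of 0.5. Reads that were exchanged among Tuba1a, Tuba1b and Tuba1c would not alter their sum, which gave a stiff to soft ratio of 0.51 (0.48 to 0.53) and an intermediate to soft ratio of 0.15 (0.12 to 0.17). Tuba4a, the isotype whose coding sequence ends without the tyrosine codon, had 2978 normalized counts on soft, 2890 on intermediate and 4259 on stiff plates. In the deposited scaling it was the one isotype with a soft value above the intermediate value. Its intermediate to soft ratio was -0.04, with an interval from -0.12 to 0.03 that includes 0. All of its difference lay in the second step, at 0.56 (0.49 to 0.63).

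Among the beta genes the largest ratios were those of isotypes with the lowest levels. Tubb2b, a beta isotype best known from developing neurons, had 534 normalized counts on soft, 655 on intermediate and 1580 on stiff plates. It was 2.96-fold higher in the stiff than in the soft library, a log2 ratio of 1.56 (1.42 to 1.71), and ranked 52 of 11873 genes from the highest ratio. Its neighbour Tubb2a, whose tail is shown above beside that of Tubb2b, had 3542 normalized counts on soft, 3852 on intermediate and 6091 on stiff plates. The stiff to soft ratio of Tubb2a was 0.78 (0.72 to 0.84), below that of Tubb2b with no overlap of the counting intervals. Those intervals do not cover misassigned reads. Their sum, which no exchange of reads between them would alter, gave 0.91 (0.86 to 0.97).

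Tubb3, used widely as a marker of neurons, had 203 normalized counts on soft, 222 on intermediate and 391 on stiff plates. Its stiff to soft ratio was 0.94 (0.69 to 1.20), the second largest, from 198 reads on soft, 236 on intermediate and 381 on stiff plates. For intermediate over soft the interval of Tubb3, from -0.15 to 0.41, includes 0. With 92.6% of its windows unique, Tubb3 is little exposed to reads of the other isotypes.

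The 3 abundant beta genes differed less. Tubb5, the main beta isotype of most dividing cells, had 42467 normalized counts on soft, 44008 on intermediate and 55251 on stiff plates, and its stiff to soft ratio was 0.38 (0.36 to 0.40). Tubb4b, a widely expressed isotype also found in cilia, had 12894 on soft, 13055 on intermediate and 16101 on stiff plates, with a ratio of 0.32 (0.29 to 0.35). Tubb6, a beta isotype found widely outside the nervous system, had 6568 on soft, 6762 on intermediate and 9034 on stiff plates, with a ratio of 0.46 (0.41 to 0.51). None of these 3 reached 0.5, and the intermediate to soft intervals of Tubb4b (-0.02 to 0.05) and Tubb6 (-0.01 to 0.09) include 0. Tubb5 had the most reads of the 10 genes in every library.

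**Figure D3:**
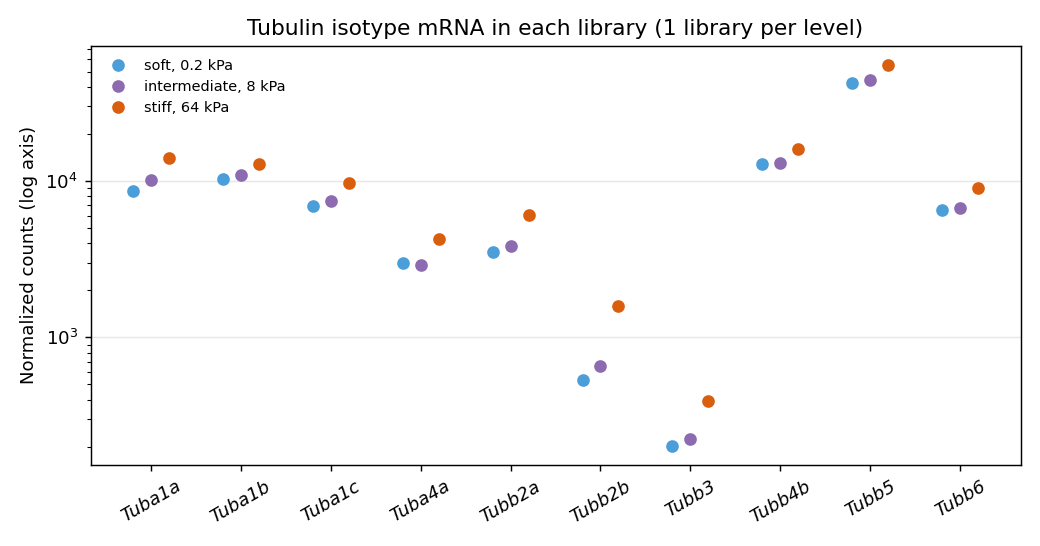
Normalized counts of the 10 isotypes in the soft, intermediate and stiff library (1 point each, log axis). The stiff point is the highest for all 10 genes, from Tubb3 at 391 to Tubb5 at 55251.

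In the deposited scaling the order soft, intermediate, stiff held for 9 of the 10 isotypes, against 30.2% of all genes, and for Tuba4a the first 2 were exchanged. Scaled by total reads or by upper quartile, Tubb4b lost that order too, at -0.001 and -0.018 for intermediate over soft. The intermediate library held a median of 14.8% of the stiff to soft log2 change, from -8.37% for Tuba4a to 33.4% for Tuba1a. For all 10 the second step was the larger. The counting interval lay above 0 for 10 of 10 isotypes for stiff over soft (31.3% of all genes), for 6 of 10 for intermediate over soft (21.8%) and for 10 of 10 for stiff over intermediate (26.3%). Abundant genes pass this criterion with small differences.

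Levels of different isotypes were compared per kb of annotated exon. In the soft library Tubb5 stood highest at 12710 normalized counts per kb, followed by Tubb4b (6169), Tuba1a (4772), Tuba1b (2941), Tuba1c (2666), Tubb6 (1733), Tubb2a (1507), Tuba4a (545.5), Tubb2b (86.7) and Tubb3 (63.2). With 1 library per level, no spread can show which neighbours in this order differ. In the stiff library Tuba1a (7793) stood just above Tubb4b (7704), Tuba1c (3783) above Tuba1b (3662), and Tubb2a (2591) above Tubb6 (2384). Per kb of the canonical transcript Tuba1a (7810) stayed below Tubb4b (10060) and Tubb2a (2619) below Tubb6 (3100) on the stiff plate, and per kb of unique windows Tuba1c stood above Tuba1b on soft (6798 against 5569) as on stiff plates (9648 against 6934). All 3 exchanges thus depended on the length used. Across the 10 genes, the mean level per kb and the stiff to soft ratio had a Spearman correlation of -0.76, a description of 10 genes measured in the same libraries. The order at the top depended on the length used: per kb of unique windows, which would fit if unique reads alone had been counted, Tuba1a led in the soft library at 20990, ahead of Tubb4b at 19720 and Tubb5 at 16540.

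Per kb of exon, Tuba1a made up 43.7% of the alpha pool on soft, 46.2% on intermediate and 48.7% on stiff plates, and Tuba1b 26.9%, 25.8% and 22.9%. Per kb of unique windows these shares were 61.3%, 63.7% and 65.8% for Tuba1a and 16.3%, 15.3% and 13.3% for Tuba1b. Tubb5 made up 57.1% of the beta pool on soft, 57.2% on intermediate and 55.9% on stiff plates. Tubb2b made up 0.389%, 0.462% and 0.866% of the beta pool, and Tubb3 0.284%, 0.301% and 0.411%, so both stayed under 1% of the pool. Per kb of unique windows Tubb4b made up 48.0% of the beta pool on soft and 45.7% on stiff plates and Tubb5 40.3% and 40.0%, so which of these 2 led depended on the length used.

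**Figure D4:**
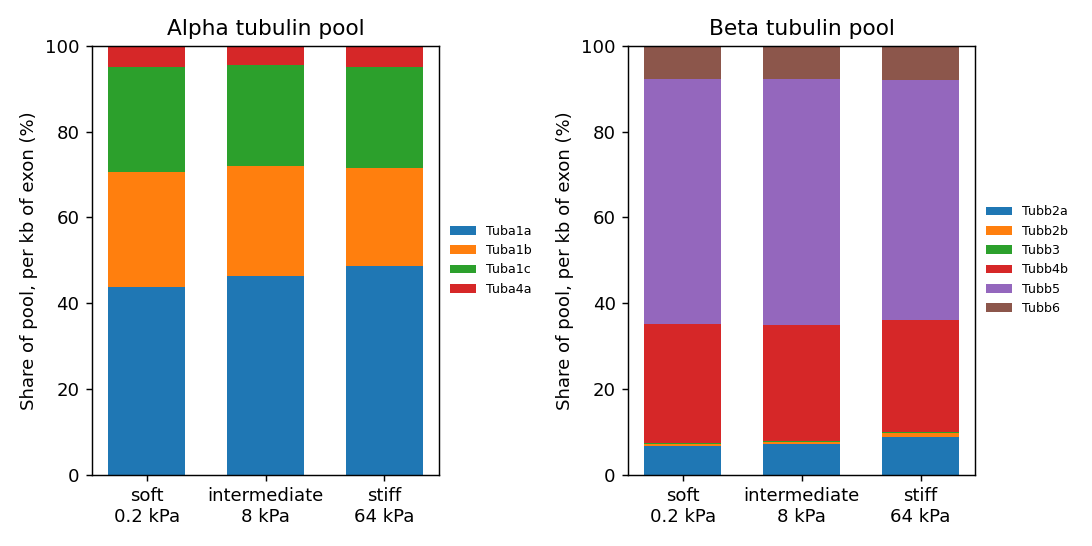
Share of each isotype in the alpha pool (left) and beta pool (right) in the 3 libraries, from normalized counts per kb of exon, in percent. Tuba1a grows from 43.7% to 48.7% of the alpha pool, and Tubb5 keeps 55.9% to 57.2% of the beta pool.

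Of 10 other tubulin genes, 4 (Tuba3a, Tuba3b, Tubal3 and Tubb1) had no read in any library, where a count of 0 allows up to 3 reads. Tuba8 had 3, 7 and 9 reads and Tubb4a 27, 44 and 66 reads in the soft, intermediate and stiff library, below the minimum mean. The 4 expressed ones, the gamma, delta and epsilon tubulins of the centrosome and basal body (Tubg1, Tubg2, Tubd1 and Tube1), had stiff to soft ratios of 0.17 (0.052 to 0.28), 0.25 (-0.07 to 0.57), -0.36 (-0.61 to -0.11) and -0.10 (-0.54 to 0.35). None of the 4 reached the size of 0.5, which 15.6% of all genes did, and the delta tubulin Tubd1 was lower in the stiff library.

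Genes that fold tubulin differed by less than the call size. Of 22 genes for the chaperonin CCT, prefoldin, the tubulin cofactors, Arl2, Pdcl3 and the feedback factor Ttc5, 0 passed the size in either direction for stiff over soft, where 15.6% of all genes did, with a median of -0.01. Ttc5, named after its values were seen, had 483 normalized counts on soft, 469.5 on intermediate and 475 on stiff plates. Of 17 expressed enzymes that modify tubulin, 0 were higher and 1 was lower, Agbl3, which belongs to the family that trims glutamates from the tail, at -0.81 (-1.24 to -0.40), where 11.8% of all genes were higher and 3.77% lower. That single gene is 1 of 17, near the share of all genes. The genes of the list that act on the final tyrosine of alpha tubulin, named here after their values were seen, did not go one way. They were Ttl, the ligase that restores it, at 0.20 (0.04 to 0.36), and Vash2 with its partner Svbp, which remove it, at -0.23 (-0.40 to -0.05) and -0.14 (-0.30 to 0.02). Vash1, the other remover, was below the minimum mean with 24, 38 and 42 reads on soft, intermediate and stiff plates, a ratio of 0.78 (0.051 to 1.60).

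Among genes for proteins that bind microtubules, several were higher in the stiff library. Over all expressed genes 11.8% were higher and 3.77% lower by the same size, and the counts below are read beside those shares. Of 25 expressed stabilisers and plus or minus end proteins, 12 were higher and 1 lower for stiff over soft, with a median of 0.50. The highest were Map1b, a microtubule-associated protein of growing axons, at 1.66 (1.42 to 1.93), and Map7d1, a kinesin recruiter, at 1.08 (0.995 to 1.18), and the lowest was Map2, of dendrites, at -0.77 (-1.42 to -0.17) from 62 and 36 reads. Of 27 expressed motor genes, 9 were higher and 0 lower, with a median of 0.32, led by the dynein heavy chain Dync1h1 at 1.23 (1.14 to 1.33) and the kinesin Kif1a at 1.18 (1.02 to 1.34). Of 12 expressed genes of the gamma-tubulin ring complex and its anchors, which nucleate microtubules, 2 were higher, the large centrosome proteins Pcnt at 1.10 (0.58 to 1.67) and Cdk5rap2 at 0.69 (0.40 to 0.99), and the median was 0.03. That count is 16.7% of the list, near the share of all genes. Of 10 expressed destabilising and severing genes, 0 were higher and 1 was lower, the kinesin Kif18a at -0.58 (-0.88 to -0.29), with a median of -0.15.

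The ratios of all genes followed transcript length and GC content in these libraries, and the trend was larger for the binding proteins than for the tubulins. After the median ratio of the 200 genes nearest in length and GC content was subtracted, 8.19% of all genes with a trend value were higher by 0.5 or more for stiff over soft and 3.84% lower. The stiff to soft median of the stabilisers went from 0.50 to 0.28 and 7 of 25 were higher and 2 lower, and that of the motors went from 0.32 to 0.20 with 6 of 27 higher. Neither Pcnt (0.46) nor Cdk5rap2 (0.33) then passed the size, which left 0 of 12 genes of the ring complex. Of the destabilising genes Kif18a (-0.48) no longer passed, and Kif2a, a kinesin that takes apart microtubule ends, passed as higher (0.53, from 0.41). The subtracted trend was between -0.05 and 0.10 for the 10 isotypes. Their median became 0.45, all 10 stayed above 0, and 4 (Tuba1a, Tubb2a, Tubb2b and Tubb3) stayed past the size of 0.5.

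**Figure D5:**
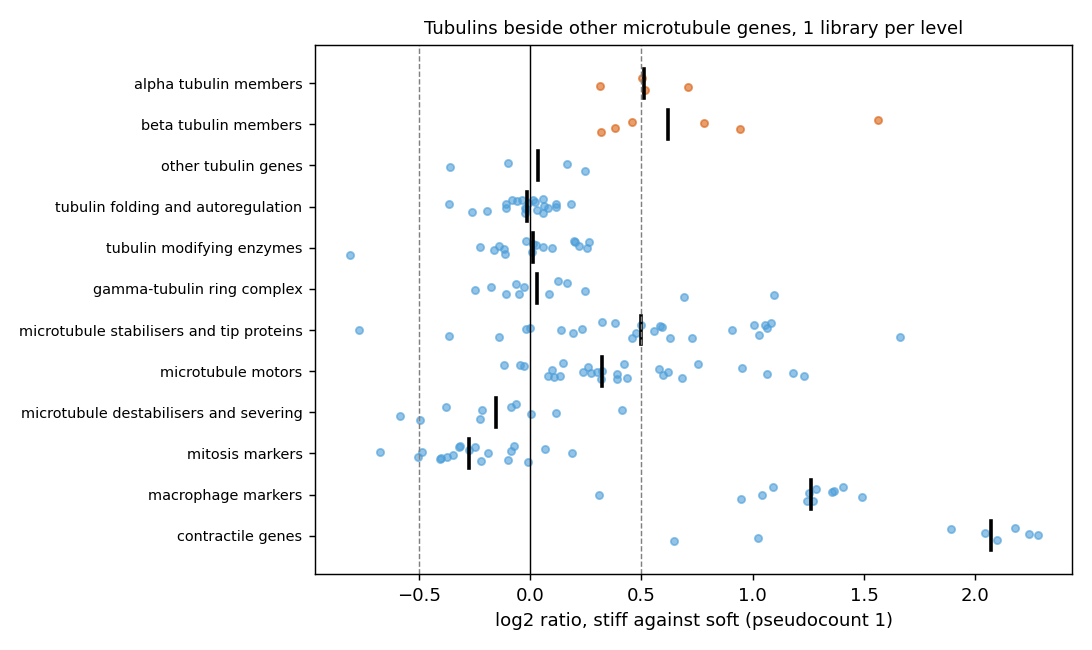
Stiff to soft log2 ratios of the expressed genes (1 point per gene, vertical position within a row is arbitrary) in the 2 isotype sets and 10 other lists; black bars are medians and dashed lines mark a size of 0.5. The isotypes have medians of 0.51 (alpha) and 0.62 (beta), beside -0.01 for the folding genes and -0.28 for the mitosis markers.

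Markers of other cell states and cell types also differed across the 3 libraries. Of 19 expressed mitosis markers 0 were higher and 2 were lower for stiff over soft, Ccnb2 at -0.67 (-0.81 to -0.54) and Ttk at -0.50 (-0.77 to -0.24), with a median of -0.28, where 3.77% of all genes were lower. With the length and GC trend subtracted 1 was lower, as Ttk stood at -0.42. All 8 contractile genes were higher, with a median of 2.07. Of 10 synovial fibroblast genes 2 were higher, Col1a1 at 0.95 and Prg4 at 0.62, with a median of 0.19, where 11.8% of all genes were higher. With the trend subtracted that median was 0.017 and 1 was higher, as Col1a1 stood at 0.45. Of 12 macrophage markers 11 were higher, with a median of 1.26, and 0 of 12 were at 0 reads. The summed level of the 12 was 30259 normalized counts on soft, 37395 on intermediate and 65543 on stiff plates. Most of it came from Lyz2, at 18362, 21482 and 39173. The part of macrophage RNA in the tubulin differences was not tested.

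Because Tubb2b and Tubb3 are known from neurons, neuron and Schwann cell markers were set beside them. Of 14 neuron markers, 5 (Rbfox3, Syt1, Elavl3, Nefh and Dcx) had 0 reads in all 3 libraries, and the summed level of the 14 was 956.5 normalized counts on soft, 1000.2 on intermediate and 1465 on stiff plates. Uchl1 and Stmn2, the 2 with a mean of at least 50, made up most of it, and their stiff to soft ratios were 0.67 (0.54 to 0.81) for Uchl1 and -0.06 (-0.36 to 0.24) for Stmn2. Among those with few reads, named after their values were seen, Nefm had 11, 11 and 90 reads and Nefl 0, 2 and 12, whereas Snap25 had 8, 5 and 4, Syp 8, 8 and 7, and Prph 6, 8 and 4. The counting interval for stiff over soft lay above 0 for Uchl1, Nefm (2.1 to 4.1) and Nefl (from 1.5, without an upper bound). It included 0 for Stmn2, Snap25 (-3.18 to 0.90), Syp (-1.89 to 1.47) and Prph (-2.85 to 1.49). Of the 3 expressed Schwann cell markers 1 was higher, the myelin gene Mbp at 1.22 (0.91 to 1.55), and 1 lower, S100b at -0.60 (-0.97 to -0.25), where 11.8% of all genes were higher and 3.77% lower. Of all 10 Gfra3 had no read, and their sum was 4610, 4717 and 5252 normalized counts, most of it from Pmp22, which fibroblasts also express. Of 8 endothelial markers none had a mean of 50.

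The genes whose 2 steps were most like those of Tubb2b were found among 10663 named genes with a mean of at least 100 by the distance in the 2 log2 ratios. They were Inpp5d, a lipid phosphatase best known from blood cells, at a distance of 0.058, Lrrc25 at 0.074, Map1b at 0.10, the adaptor Shb at 0.11 and the leukocyte receptor Cd33 at 0.11. Inpp5d had 149 normalized counts on soft, 178 on intermediate and 445 on stiff plates. With 3 libraries behind it, this likeness is a description of these values.

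The 250 bases before the canonical start were searched on both strands for short motifs. The CArG box, bound by SRF, was in 0 of 10 isotype promoters and in 1.36% of 19821 protein-coding genes, and GGAATG, bound by TEAD factors, in 1 of 10 (Tubb5) and 12.1%. CCAAT was in 6 of 10 (Tuba1b, Tuba1c, Tubb2b, Tubb4b, Tubb5 and Tubb6) and 36.1%, GGGCGG in 5 of 10 (Tuba1b, Tubb2a, Tubb2b, Tubb3 and Tubb4b) and 39%, and TATAAA in 1 of 10 (Tubb2a) and 10.7%. These are matches of letters and not binding sites.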

How the data were processed

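The deposited signal values are gene counts that the authors divided by 1 size factor per library. The submitters' processing notes name bcl2fastq 2.20.0, STAR 2.7.9a, featureCounts of Subread 2.0.1, DESeq2 1.34.0 and the build GRCm39. The annotation, the strand setting and the handling of reads that fit several genes are not given in the sources used here. The 3 deposited files were identical, and columns were matched to samples by title. Dividing a column by its smallest value above 0 gave whole reads for 100% of values (within 0.001 reads). A count-based test needs replicates and was not made.

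Ratios used a pseudocount of 1, a minimum mean of 50 and a size of 0.5. Genes were matched by symbol to GENCODE vM39, whose GRCm39 coordinates are printed. Some tail sequences are not reported here. The named genes were the 10 isotypes and, per list, at most the 2 highest and 2 lowest past that size, plus the 5 nearest to the isotype with the largest ratio. Other list genes that the text names fall outside this rule and were chosen after their values were seen, among them the other tubulin genes, Ttc5, Ttl, Vash1, Vash2, Svbp, Kif2a, and single neuron, Schwann cell and telocyte markers. The members, lists and promoter motifs were chosen with earlier results of these data known. The sum over unique isotypes and the levels per kb of unique windows were chosen after seeing the data. Calls and trend were tested on simulated data. The tools were scipy 1.17.1, biopython 1.88, matplotlib 3.10.9, pandas 2.3.3 and numpy 2.4.6 under Python 3.11.15.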

Additional observations from a re-analysis of the deposited data

How the results depend on the processing

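With 1 library per level no replicate could be left out. No paired analysis was possible because each level has 1 library. The counts of isotypes past the size depended on that size by construction: at 1 it was 1 of 10 for stiff over soft and 1 for stiff over intermediate (Tubb2b in both), where 3.22% and 0.825% of all genes were higher. At 0.25 it was 10 (stiff over soft), 1 (intermediate over soft) and 9 (stiff over intermediate), where 23.7%, 14% and 16.2% were higher. Other pseudocounts, minimum means, scalings and the trend correction kept each count within 1.5 times the reported one, or at 0. The summed log2 ratios of stiff to soft, intermediate to soft and stiff to intermediate were 0.39, 0.055 and 0.34 when scaled by total reads, 0.39, 0.038 and 0.35 by upper quartile, and 0.40, 0.045 and 0.36 over isotypes with at least 90% unique windows. Of 210 recomputed ratios of single isotypes 2 changed sign, both for Tubb4b, intermediate over soft, whose counting interval includes 0. Depth limits Tubb3 most, at 198 to 381 reads.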
